A study of Bos taurus with 12 samples.

Results

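The endometrium of pregnant heifers (P), in which a conceptus was present, was compared with both groups that had none, the non-pregnant heifers (NP) and the heifers that were cyclic (C). All 12 libraries of the series entered the comparison, 4 per group, and it covered the 1379 genes with a mean of 10 or more counts over the 12 libraries, out of 27270 genes in the count table (5.06%). These genes held 82.7% of all gene counts. The 4 pregnant libraries were set against the average of the NP mean and the C mean, so that each of these groups had the same weight. All animals were Angus heifers aged 2 to 3 years whose estrous cycles had been synchronized with 2 injections of 25 mg prostaglandin F2 alpha. Pregnant heifers (73, 76, 78 and 79) had been bred, and carried a conceptus when sampled between Day 15 and Day 17. Bred heifers in which no conceptus was found made up the NP group (72, 74, 75 and 77), and whether an embryo had formed in them is not given in the sources used here. Cyclic heifers (3, 4, 5 and 6) had not been bred, and the day of the cycle of the NP and C heifers is likewise not given. Each library came from the caruncles of a single heifer.

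Caruncles are the raised, gland-free areas of the ruminant endometrium to which the placenta later attaches. Around the time of maternal recognition of pregnancy, the elongating bovine conceptus secretes interferon tau, which acts on the endometrium so that the corpus luteum persists and progesterone continues to be produced. Interferon tau is known to switch on classical interferon-stimulated genes in the bovine endometrium, such as ISG15, MX1 and MX2, while progesterone prepares the same tissue in cyclic and pregnant animals alike. The contrast asks which transcripts differ between heifers with a conceptus and the average heifer without one. As the C heifers were not bred, a difference between bred and unbred heifers also enters it, at the weight of the C group, and the comparisons with NP and with C are therefore given side by side. The count table names its genes by Ensembl ID, and 0 of the IDs could be paired with a gene symbol in the tables used here. For this reason the lists of interferon-stimulated, antigen presentation, extracellular matrix, protease, transporter, steroid-response and mitochondrial genes, and the markers of epithelium, stroma, muscle, endothelium, blood cells and trophoblast, were not applied, and the tissue label was not checked against markers. Genes are described below by ID (2 in each direction) and otherwise by their number.

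The deposited gene counts were low. They summed to between 95618 and 152234 in P, between 102257 and 160862 in NP and between 111177 and 123761 in C heifers, and 1 count stood for 6.70 to 15.2 CPM, the count scaled to a common library size after TMM normalization. These totals are a small part of the reads that the study describes as sequenced and mapped, and why so few are in the count table was not tested. The total, the number of genes with a count, the share of the 10 most abundant genes and the TMM factor did not separate P from the other 8 heifers (two-sided exact permutation tests over 495 arrangements, p = 0.222 to 0.861, 0.861 after adjustment for 4 tests). Pregnant heifer 79 and non-pregnant heifer 74 had the largest shares of counts in the 10 most abundant genes, 31.96% and 29.8%, where the other libraries had 19.4% to 25.8%.

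Before the groups were compared, each heifer was placed by a fit that did not contain it, although its counts did enter the mean used to choose the 1379 genes. For this, the contrast was fitted on the other 11 libraries, the genes with an unadjusted p under 0.05 were taken, and the log2 CPM of the left-out heifer was set against the P mean and the average of the NP and C means. Pregnant heifers 73, 78 and 79 lay nearer the P mean at 59.9%, 63.1% and 61.0% of these genes. The library labelled pregnant heifer 76 did so at only 26.7% of 217 genes. Non-pregnant heifers 72, 75 and 77 lay nearer the P mean at 30.6%, 27.0% and 23.97% of the genes, and cyclic heifers 3, 4, 5 and 6 at 24.8%, 17.6%, 33.9% and 19.4%. The library labelled non-pregnant heifer 74 lay nearer the P mean at 85.5% of 283 genes, the highest share of the 12. Over all 1379 genes, where most do not separate the groups, the share was 67.4% for heifer 74 and 38.3% for heifer 76, beside 53.7% to 56.6% for the other pregnant and 36.5% to 42.3% for the other NP and C heifers. With the minimum count also computed without the heifer placed, heifer 74 lay nearer the P mean at 85.5% and heifer 76 at 25.3% of the genes, beside 57.2% to 64.5% for the other pregnant heifers and 18.6% to 32.6% for the other NP and C heifers. Both libraries thus went against their labels by this measure, and the labels were kept. The results below are given with and without them.

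**Figure D1:**
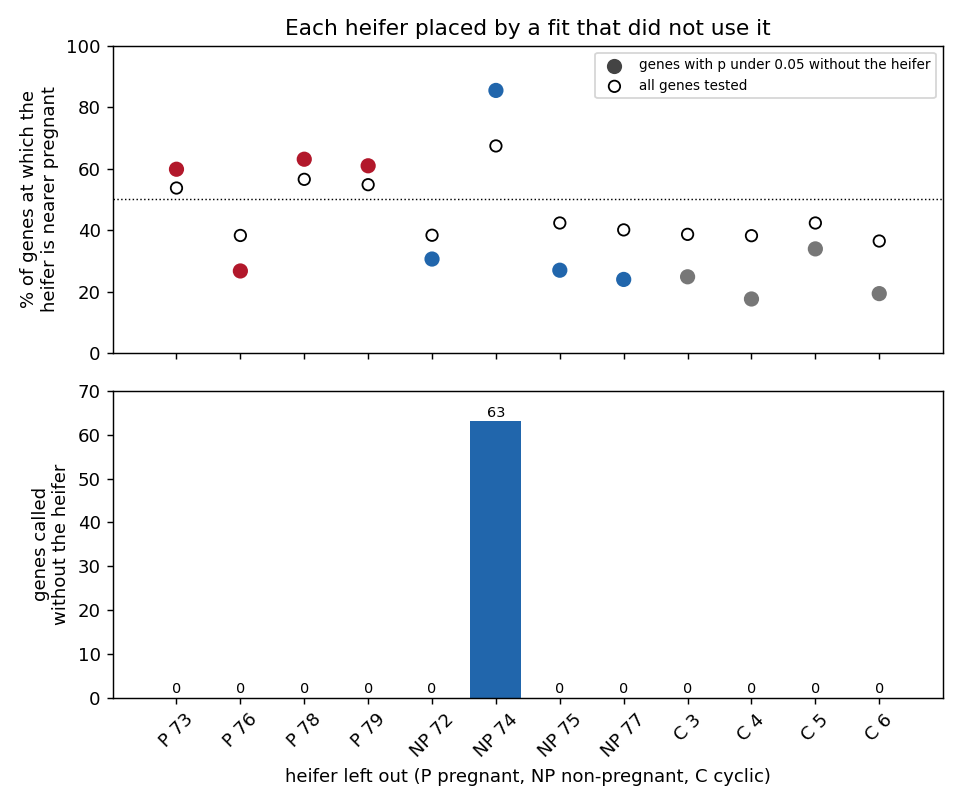
Upper panel: percent of genes at which a left-out heifer lay nearer the pregnant mean than the average of the non-pregnant and cyclic means, for genes with an unadjusted p under 0.05 in the fit without that heifer (filled, coloured by group label) and for all 1379 genes (open); the dotted line marks 50%. Lower panel: genes called in the pooled contrast without that heifer. NP heifer 74 is at 85.5% and P heifer 76 at 26.7%, and among these fits of the same 1379 genes only that without NP heifer 74 called any (63).

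With all 12 libraries, no gene was called between P and the average of NP and C. Calls required an FDR (the adjusted p) below 0.05 together with a difference of more than 2-fold in edgeR's quasi-likelihood test, and the count was 0 of 1379 (0%), with a smallest FDR of 0.159. At an unadjusted p under 0.05, 177 genes (12.8%) differed, 94 higher (6.82%) and 83 lower (6.02%) in P, and 23 genes had an FDR under 0.2. DESeq2 on the same genes called 17 (1.23%), 6 higher and 11 lower, and limma-voom called 0. In a whole-tissue sample, fewer cells of a type and less RNA per cell cannot be told apart, which holds for every difference given here. The standard error of the log2 fold change had a median of 0.33 over all genes (quartiles 0.27 and 0.42), against 0.38 for P vs. NP alone. The absolute log2 fold change had a median of 0.29, less than 1 standard error of a typical gene, and 118 genes exceeded a fold change of 2 in the estimate.

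The comparisons with NP and with C gave different numbers of genes. P vs. C gave 224 genes at an unadjusted p under 0.05 in edgeR (16.2%) and P vs. NP gave 106 (7.69%), while 0 genes were called in either, with smallest FDRs of 0.0523 and 0.488. DESeq2 called 35 of the 1379 genes for P vs. C and 0 for P vs. NP. EdgeR calls, 0 in either with all 12 libraries, were fewer for P vs. C once heifer 74 was left out. Without heifer 74, edgeR called 20 of 1379 genes for P vs. C and 34 for P vs. NP. Without heifers 74 and 76 it called 58 and 72. The counts at an unadjusted p and from DESeq2 are not given for these smaller sets, so no like measure shows a change of order. These comparisons share the pregnant libraries, and the difference between their counts was not tested. NP vs. C, which is the difference between these comparisons, gave 127 genes at an unadjusted p under 0.05 (9.21%), and 1 gene was called (0.0725%), lower in NP. The count was 0 in edgeR when C heifers 3 or 6, NP heifers 72, 74 or 75, or P heifers 73 or 79 were left out singly. The cyclic libraries carry a run of title numbers of their own, and no batch is given. Any other difference between the cyclic and the bred heifers therefore cannot be told apart from breeding. In the order of the group means, P was the highest group at 456 genes (33.1%), the middle at 433 (31.4%) and the lowest at 490 (35.5%). NP was the middle group at 514 genes (37.3%) and C at 432 (31.3%). Without NP heifer 74, C was the middle group most often, at 533 genes (38.7%), beside P at 409 (29.7%) and NP at 437 (31.7%).

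The share of genes with an unadjusted p under 0.05 was 10.9% of the 598 genes with a mean of 10 to 20 counts, 14.99% of the 407 genes with 20 to 50 counts, and 13.6% of the 374 genes with 50 or more. In the class of lowest counts, 40 of these genes were higher in P and 25 lower, and among the most abundant genes 26 were higher and 25 lower. The median standard error was 0.38 log2 units in the lowest class and 0.25 in the highest.

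At 12 genes (0.870%), all 4 pregnant heifers lay on the same side of all 8 heifers without a conceptus, 3 higher (0.218%) and 9 lower (0.653%) in P. These 12 genes are a description, since the same contrast chose them. Their log2 fold changes ranged in size from 0.61 to 2.81, 7 of them exceeded a fold change of 2, and their FDRs in edgeR lay between 0.159 and 0.371. NP and C differed at an unadjusted p under 0.05 at 1 of the 12. The plot of fold change against p shows the 12 genes among all others.

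**Figure D2:**
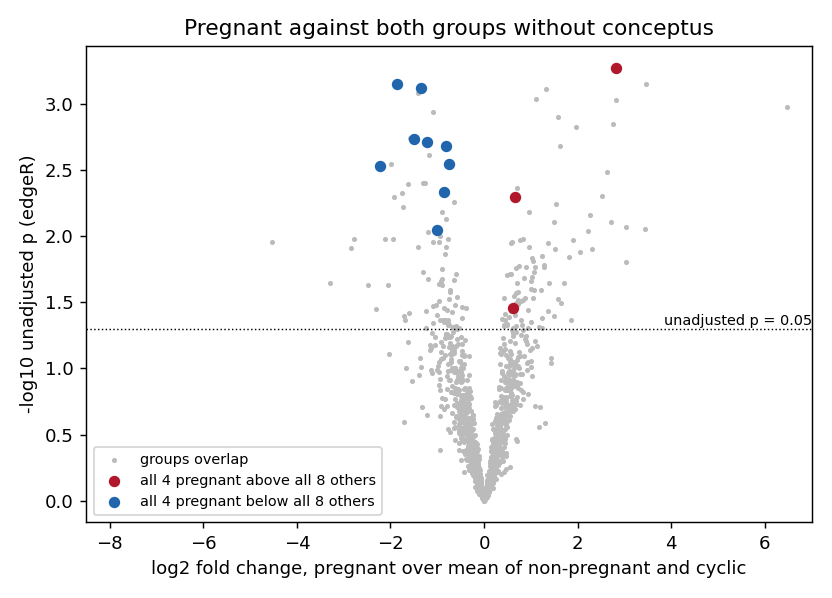
Each point is 1 of 1379 genes, with the log2 fold change of pregnant over the average of non-pregnant and cyclic on the horizontal axis and -log10 of edgeR's unadjusted p on the vertical axis. Red and blue points are the 3 genes at which all 4 pregnant heifers lay above, and the 9 at which they lay below, all 8 others; no gene had an FDR under 0.05.

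Among the 3 genes that were higher, ENSBTAG00000013525 had the smallest p of all genes. It stood at 116, 126, 232 and 1537 CPM in pregnant heifers 73, 76, 78 and 79 (13, 17, 23 and 101 counts). Non-pregnant heifers 72, 74, 75 and 77 had 76.7, 95.8, 23.4 and 46.9 CPM (9, 8, 2 and 7 counts), and cyclic heifers 3, 4, 5 and 6 had 78.7, 90.5, 69.4 and 66.1 CPM (8, 9, 7 and 6 counts). The groups did not overlap, but a single pregnant heifer, 79, was far above the other 3, and heifers 73 and 76 were close to the highest conceptus-free heifer, NP heifer 74. P exceeded the others by 2.81 on the log2 scale (standard error 0.62; edgeR FDR 0.159), with 2.98 against NP and 2.65 against C. Without heifer 79 it was 1.24 (FDR 0.394 from edgeR).

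ENSBTAG00000010252 was more abundant and much less variable. It had 931, 905, 737 and 699.9 CPM in pregnant heifers 73, 76, 78 and 79, against 690.4, 635, 526 and 663 CPM in non-pregnant heifers 72, 74, 75 and 77 and 433, 442, 555 and 287 CPM in cyclic heifers 3, 4, 5 and 6. The lowest pregnant value, of heifer 79 (46 counts), was just above the highest non-pregnant value. This gap was smaller than the 15.2 CPM that 1 count stood for in heifer 79. All cyclic heifers but heifer 5 were below every non-pregnant heifer. P was higher by 0.66 log2 units (standard error 0.20; edgeR FDR 0.218), under a fold change of 2. It was made up of 0.38 against NP (edgeR unadjusted p = 0.121, FDR 0.688) and 0.93 against C (edgeR unadjusted p = 0.00147, FDR 0.102). NP exceeded C by 0.55 (standard error 0.23, edgeR unadjusted p = 0.0347, FDR 0.458). This was the 1 gene of the 12 described above at which NP and C had an unadjusted p under 0.05.

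ENSBTAG00000014835 was the gene with the smallest p among those lower in P. It was nearly level in the pregnant heifers, at 179, 178, 151 and 167 CPM in heifers 73, 76, 78 and 79 (20, 24, 15 and 11 counts). Non-pregnant heifers 72, 74, 75 and 77 had 682, 347, 947 and 523 CPM, and cyclic heifers 3, 4, 5 and 6 had 226, 664, 1199 and 364 CPM. The conceptus-free heifers were thus spread widely and all lay above the pregnant ones, with cyclic heifer 3 nearest and NP heifer 74 the lowest of its group. Means were 169 ± 12.8 CPM in P, 625 ± 255 CPM in NP and 613 ± 431 CPM in C (SD, n = 4 each). On the log2 scale the difference was -1.86 (standard error 0.43; edgeR FDR 0.159), and it was -1.87 against NP and -1.85 against C.

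ENSBTAG00000010793 had the same pattern at a lower level. It had 125, 81.6, 101 and 137 CPM in pregnant heifers 73, 76, 78 and 79 (14, 11, 10 and 9 counts), against 324, 216, 339 and 221 CPM in non-pregnant heifers 72, 74, 75 and 77 and 167, 432, 317 and 220.5 CPM in cyclic heifers 3, 4, 5 and 6. Means were 111 ± 24.8 CPM in P, 275 ± 65.6 CPM in NP and 284 ± 117 CPM in C (SD, n = 4 each). The difference was -1.34 log2 units (standard error 0.31; edgeR FDR 0.159), and NP and C differed by -0.05 (standard error 0.32). NP heifer 74 was the lowest of its group here as well, and P heifer 76 the lowest of all 12.

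**Figure D3:**
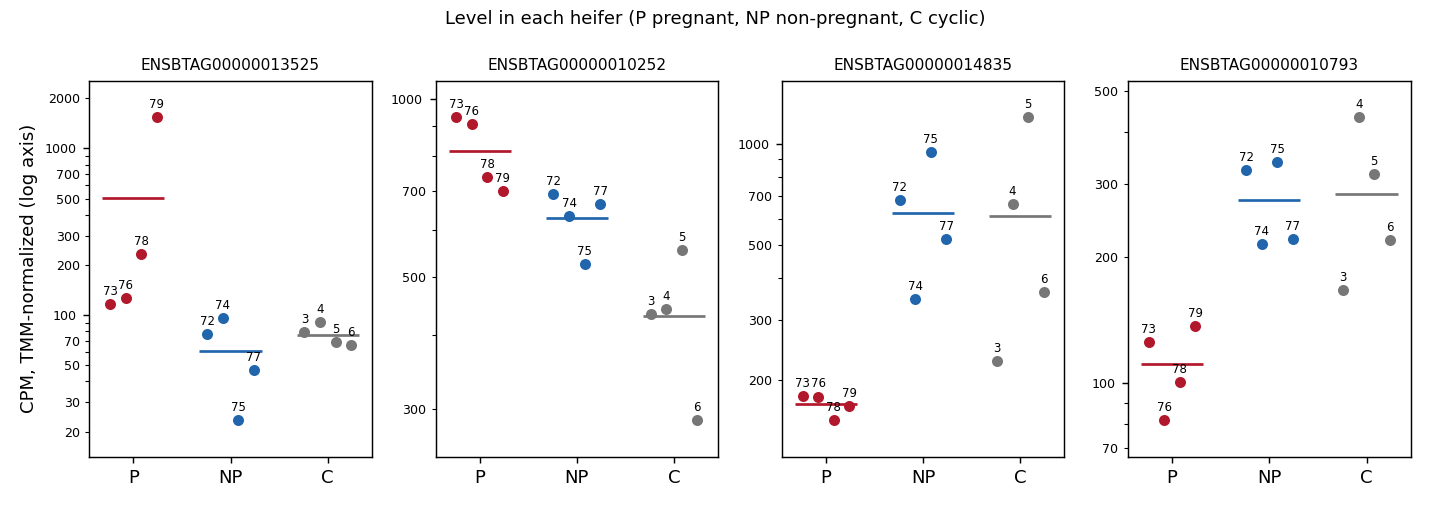
TMM-normalized CPM (log axis) of the 4 named genes in each heifer, by group (P pregnant, NP non-pregnant, C cyclic); points are heifers with their numbers and lines are group means. The left pair of genes is higher and the right pair lower in all 4 P heifers than in the other 8; in ENSBTAG00000013525, P heifer 79 is at 1537 CPM and the other P heifers at 116 to 232 CPM.

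The genes that narrowly missed such a separation were concentrated in the libraries of heifers 74 and 76. At 54 of the 1379 genes, 7 of the 8 conceptus-free heifers lay beyond the whole pregnant range and only 1 reached into it. NP heifer 74 was that heifer at 35 of the 54 genes, 22 higher and 13 lower in P, and each of the other 7 was so at 0 to 5 genes. At 65 of the 1379 genes, 3 pregnant heifers lay beyond all 8 others and only 1 lay among them. This was heifer 76 at 33 of the 65 genes, 18 higher and 15 lower in P, and heifers 73, 78 and 79 at 10, 10 and 12.

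**Figure D4:**
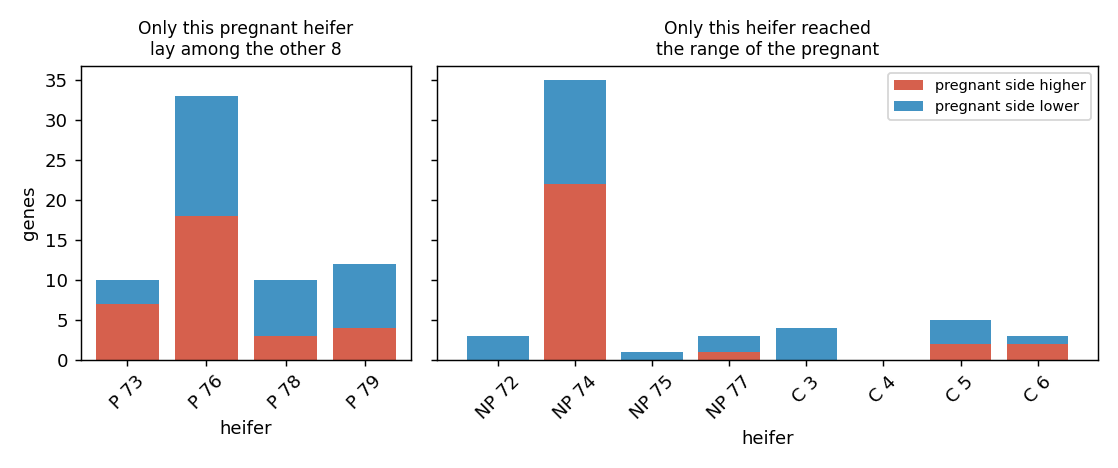
Number of genes at which a pregnant (P) heifer alone lay among the 8 other heifers while the other 3 P heifers were beyond them (left, 65 genes), and at which a non-pregnant (NP) or cyclic (C) heifer alone reached the P range (right, 54 genes). Colours give the side on which the P heifers lay; P heifer 76 has 33 genes and NP heifer 74 has 35.

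Without NP heifer 74, 63 of the 1379 genes (4.57%) were called, 50 higher and 13 lower in P, with a smallest FDR of 0.00190 from edgeR. On the same 1379 genes, leaving out any single one of the other 11 heifers called 0 genes in edgeR, with smallest FDRs between 0.0507 (without P heifer 76) and 0.392 (without P heifer 79) and 122 to 217 genes at an unadjusted p under 0.05. With the minimum count computed on the 11 libraries fitted, 60 genes were called without heifer 74, all among the 63, 9 genes without P heifer 76 (8 higher and 1 lower), and 0 without any of the other 10. The log2 fold changes of the 50 genes ranged from 1.01 to 6.39 (median 1.96) and those of the 13 genes from -2.09 to -1.06 (median -1.44). All 63 had the same direction in the fit of 12 libraries, and 52 had an unadjusted p under 0.05 there. In the fit of 11 libraries, P exceeded or fell below NP at an unadjusted p under 0.05 at 61 of the 63, and C at 62. The pooled contrast that chose the 63 genes is the average of these comparisons, and the fit of 12 libraries contains the same 11. These counts therefore follow in large part from the choice and are a description. At 11 of the 63 genes, 1 heifer held more than 50% of the pregnant CPM, and heifer 79 was the highest pregnant heifer at 27 of the 63. The same counts were not taken over all 1379 genes, so whether the 63 are unusual in this is not known. ENSBTAG00000013525, ENSBTAG00000014835 and ENSBTAG00000010793 were among the 63, with FDRs of 0.0251, 0.0204 and 0.0270 from edgeR. ENSBTAG00000010252 was not, with an FDR of 0.0760. All 4 pregnant heifers lay apart from the 7 remaining conceptus-free heifers at 48 genes (3.48%). This count follows largely from the genes given above at which heifer 74 alone reached the pregnant range. The call count depended on the tool, with 91 genes by DESeq2 and 14 by limma-voom without heifer 74. Leaving out heifer 74 was chosen with earlier results of these data known, so these counts describe the libraries and are not an independent test of the conceptus.

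Heifer 74 was not in the fit that called the 63 genes, but its counts were part of the mean count by which genes entered the test. It lay nearer the P mean than the average of NP and C at 56 of the 63, 45 of the 50 higher and 11 of the 13 lower genes. With its counts also left out of that mean, it lay nearer P at 43 of 48 higher and 10 of 12 lower genes. At 56 of the 63 heifer 74 was at or past the nearest pregnant heifer. That nearest heifer was heifer 76, itself placed nearer the conceptus-free heifers, at 40 of the 63 genes. The placement of heifer 74 did not rest on any 1 other library, and with a further heifer other than 76 left out it was nearer P at 81.4% to 89.4% of the genes taken, 86.8% without P heifer 79. In these 10 fits, 19 to 71 genes were called.

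Without both heifers 74 and 76, 81 genes were called (5.87%), 60 higher and 21 lower in P, and the remaining 3 pregnant heifers lay apart from the remaining 7 others at 143 genes (10.4%). Both heifers were left out with earlier results of these data known, so these counts are a description. Fewer libraries also lie apart more easily, so the 143 genes are not directly comparable with the count from all libraries. The list of 81 genes shared 56 genes with that found without heifer 74 alone, 69.1% of the longer and 88.9% of the shorter list. All libraries of the fit without both heifers also entered that without heifer 74 alone, so much of this overlap was built in. Neither heifer 74 nor heifer 76 was in the fit that called the 81 genes. With both left out of the minimum count as well, 79 genes were called, 77 of them among the 81. The 81 genes were chosen in part by the values of pregnant heifers 73, 78 and 79. A pregnant heifer left out of the fit would therefore tend to lie nearer the other groups than these do. At the 60 higher genes, the median log2 CPM above the cyclic mean was 1.43, 1.59 and 1.89 in pregnant heifers 73, 78 and 79, and 0.33 in heifer 76. Heifer 74 was at 1.76, where the other non-pregnant heifers were at -0.27 to -0.04. At the 21 lower genes, pregnant heifers 73, 78 and 79 were at -1.41, -1.52 and -1.47 and heifer 76 at -0.56. Heifer 74 was at -1.004, where the other non-pregnant heifers were at -0.04 to 0.19. Heifer 76 was nearer the P mean at 16 of the 60 higher and 9 of the 21 lower genes, and heifer 74 at 55 and 17. By the medians, heifer 76 was between the groups and nearer the conceptus-free heifers, while heifer 74 was at the level of the pregnant heifers for the higher genes. Heifer 74 and P heifer 79 had the highest shares of the 10 most abundant genes and also the lowest TMM factors (0.854 and 0.814). Whether this had a part in the placement of heifer 74 was not tested.

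**Figure D5:**
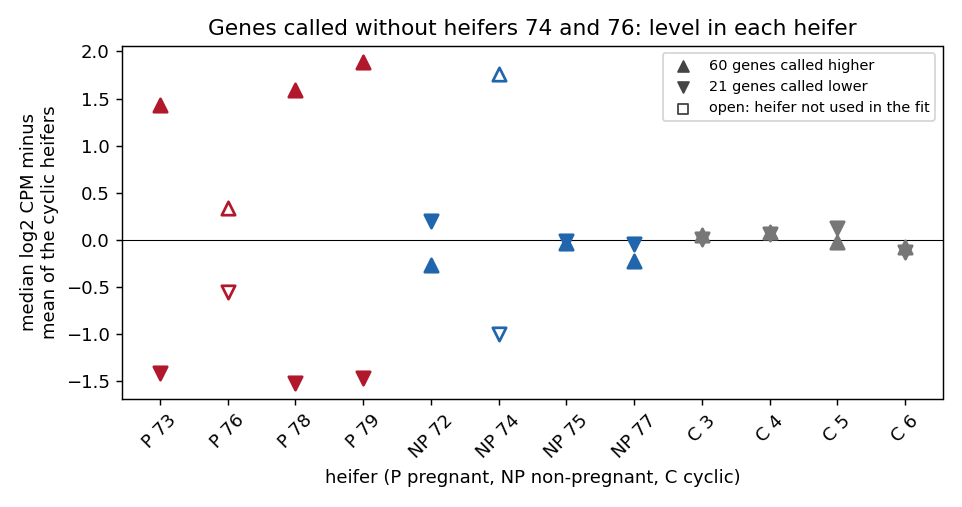
Median log2 CPM minus the mean of the cyclic heifers at the 60 genes called higher (upward triangles) and the 21 called lower (downward triangles) in pregnant heifers when heifers 74 and 76 were left out; open symbols are these 2 heifers. NP heifer 74 is at 1.76 and -1.004, and P heifer 76 at 0.33 and -0.56.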

How the data were processed

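Caruncular endometrium of 12 heifers (4 P, 4 NP and 4 C) was profiled by RNA-Seq. The authors deposited raw counts per gene, without normalization, from single-end reads of stranded libraries. Prinseq, HISAT2 (genome ARS-UCD1.2), SAMtools and htseq-count were used, and their versions and the strand setting are not given in the sources used here, so antisense partners may share reads. The deposited DESeq2 tables hold the authors' own fold changes and p-values and were not used. Groups come from the labels, the numbers used here for the heifers come from the library titles, and 0 other per-sample columns were present.

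Genes with a mean of 10 or more counts over 12 libraries were normalized by TMM and fitted in R 4.3.3 with edgeR 4.0.16, with 3 groups in 1 model and no covariate, as none is named. The contrast had weights of 0.5 on NP and on C. P-values were adjusted by Benjamini-Hochberg over all 1379 genes, and the standard error is the log2 fold change divided by the square root of F. The biological coefficient of variation was 0.397. Log2 CPM used a prior count of 2. No pair of libraries of a group agreed within counting error (chi-square at least 3.46 times its degrees of freedom). Named genes were the 2 called genes with the smallest FDR in each direction, or, as none was called, those with the smallest FDR among genes whose groups did not overlap. DESeq2 1.42.0 and limma 3.58.1 (voom) were alternatives, as were other scalings, filters and models, and leaving out heifers. The scripts were tested on simulated data. The members, lists and tests were chosen with earlier results of these data known. Python 3.11.15 and matplotlib 3.10.9 drew the figures.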

Additional observations from a re-analysis of the deposited data

Results flagged for a closer look

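The 8 measures that were taken per library or per named gene were checked for a heifer far from its group, in each of the 3 groups (24 checks, of which chance gives about 1.2). In 2 checks a heifer stood apart by its gap to the nearest heifer of its group, and both concerned pregnant heifer 79. Its library detected 7485 genes, against 8816 to 9069 in heifers 73, 76 and 78, and it had the smallest total of all libraries (95618). ENSBTAG00000013525 stood at 1537 CPM in it, against 116 to 232 CPM in heifers 73, 76 and 78.

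Genes under the minimum of 10 counts were in no test, and 14517 of them had a count in at least 1 library. At 3 of these genes, every pregnant library had a count and none of the other 8 had any, with 15 counts in all and at most 3 in a library. The reverse, counts in all 8 and in no pregnant library, was also found at 3 genes, with 52 counts in all.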

How the results depend on the processing

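The low gene counts limit the comparison, since 598 of the 1379 genes had a mean of 10 to 20 counts, and genes without a call may still differ. The pooled count was 0 with RLE, library totals, every filter but none, limma-voom, robust estimation, a 2-group model and no fold minimum. It was 17 with DESeq2, 135 without a filter (97 higher, 38 lower) and 81 without heifers 74 and 76. Alternatives added after seeing the data gave 10 genes for limma-voom with sample quality weights and, without heifer 74, 91 (DESeq2), 14 (limma-voom), 62 (RLE), 67 (library totals, 42 higher and 25 lower) and 58 (2 groups). With the left-out heifers also out of the minimum count, they gave 60 genes without heifer 74 and 79 without heifers 74 and 76. Leaving out 1 heifer gave 0 to 63 genes on the same 1379 genes, and heifer 74 with 1 further heifer gave 19 (NP heifer 72) to 71 (C heifer 5), or 81 where the further heifer was P heifer 76. P vs. NP gave 55 genes without a filter, 72 without heifers 74 and 76, and 0 to 34 with 1 heifer left out (34 without NP heifer 74, 0 otherwise). P vs. C gave 3 with filterByExpr, 2 with a mean of 5 or of 20 counts, 156 without a filter, 35 with DESeq2, 1 with limma-voom, 2 with robust estimation, 58 without heifers 74 and 76, and 0 to 20 with 1 heifer left out (20 without NP heifer 74, 7 without C heifer 5, 6 without P heifer 76, 3 without NP heifer 77). NP vs. C gave 0 with library totals, 53 without a filter, 5 with DESeq2, 0 without heifers 74 and 76, and 0 to 4 with 1 heifer left out (4 without C heifer 5 or NP heifer 77, and 0 without C heifers 3 or 6, NP heifers 72, 74 or 75, or P heifers 73 or 79). Genes with P apart from all others were 20 with a mean of 5 counts, 7 with 20 counts, 9 with library totals (4 higher, 5 lower), 143 without heifers 74 and 76, and 12 to 48 with 1 heifer left out (48 without NP heifer 74, and 22, 45, 22 and 25 without P heifers 73, 76, 78 and 79). These counts without NP heifer 74 or a single P heifer follow largely from the genes at which that heifer alone prevented the separation. The cause of the differences between settings was not tested. The 4 named genes kept their direction in all 41 or 42 settings in which they were tested. They were chosen as genes whose groups did not overlap, so this was largely fixed in advance and is a description. Log2 fold changes were 1.24 to 3.28 for ENSBTAG00000013525 (FDR 8.34e-10 to 0.490) and 0.57 to 0.76 for ENSBTAG00000010252 (FDR 0.0418 to 0.524). They were -2.10 to -1.59 for ENSBTAG00000014835 (FDR 9.11e-05 to 0.392) and -1.49 to -1.20 for ENSBTAG00000010793 (FDR 0.00665 to 0.392). The lowest FDRs of ENSBTAG00000013525 and ENSBTAG00000014835 came from the fit without a filter. No paired analysis was possible because the labels pair no heifers and no title number is shared between groups.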

Other observations

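Limma's sample quality weights, which are fitted to how far each library lies from its group mean over all genes tested, were lowest for NP heifer 74 (0.476), P heifer 76 (0.543) and C heifer 5 (0.616). The other libraries had weights of 0.861 to 1.81.

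A single heifer held more than 50% of the summed CPM of all 12 heifers at 8 of the 1379 genes. This was pregnant heifer 79 at 4 of the 8, and heifers 73 (P), 77 (NP), 3 and 5 (C) at 1 each. Pregnant heifer 79 was also the highest heifer at 11.9% of all genes and the lowest at 10.7%, which are the highest share and the second highest among the 12.

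Among genes under the minimum count, 9 had a count in every pregnant library and in none of the 7 conceptus-free libraries other than heifer 74. Heifer 74 had counts at 6 of these 9 genes. Of the 5 genes with a count in all these 7 libraries and in no pregnant library, heifer 74 had none at 2.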
